A study of Rattus norvegicus with 24 samples.

Results

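A set of 5 genes that answer to glucocorticoid hormones in many tissues was followed in rat whole brain after repeated anaesthesia. The genes were Nr3c1, the glucocorticoid receptor itself, and Sgk1, Errfi1, Klf9 and Nfkbia, which the receptor can switch on. Every probe set of the array whose platform annotation gave exactly 1 of these symbols was taken, which gave 11 probe sets for the 5 genes out of 8799 on the array, and 5 of the 4206 genes with 1 symbol that were tested. Of the 11, 9 were above a floor of 16.5 on enough arrays to be tested, and 2 were at or below it on all 24 arrays.

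Total RNA from whole brain was hybridised to 24 one-colour oligonucleotide arrays, 1 array per sample. The 12 control arrays came from rats given 3 min of halothane and then perfused at once with cold saline, and no sham exposure is described for them. The exposed rats breathed either 0.8% halothane or 1.0% isoflurane, both volatile anaesthetics, for 90 min at a time, 2 times a day with 3 h of recovery in between. Each agent was given 5 times over 2.5 days or 10 times over 5 days, with 3 arrays in each of the 4 groups, called here halothane 5, halothane 10, isoflurane 5 and isoflurane 10. All groups, the controls included, had therefore met a volatile anaesthetic. The sources used here do not give strain, sex, age or the time between the last exposure and collection. Whether replicates are different rats is not stated either, so a p-value here compares a difference with the scatter among arrays, part of which may be technical.

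In the brain, corticosterone released under stress enters cells and binds the glucocorticoid receptor, which leaves its chaperone complex, moves to the nucleus and binds response elements in DNA. Some targets respond within hours, among them kinases, feedback inhibitors and transcription factors, and the hormone also lowers its own supply through the hypothalamus and pituitary. The 4 target genes act in different branches of the response, since Sgk1 encodes a kinase acting on ion channels and transporters, Errfi1 an inhibitor of the EGF receptor, Klf9 a zinc-finger transcription factor, and Nfkbia the inhibitor that keeps NF-kappa-B out of the nucleus.

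The 24 arrays were split at the widest gap in their mean level of bacterial spike-in transcripts, which are not rat RNA. This gave 9 arrays with a high and 15 with a low level, and such a cut always yields 2 levels. The gap was 0.574 on the log2 scale over 9 spike-in probe sets. It was narrower than the range within either level, 9.599 to 10.48 for high and 7.776 to 9.025 for low. Replicate 3 of every exposed group and 5 controls were at the high level, and replicates 1 and 2 of every exposed group and 7 controls were at the low level. The labels name no batch, and each group held arrays of both levels. Of 12 listed neuron markers, 9 were on the array and 8 were tested. For astrocytes 10 of 11 listed markers were tested, and for oligodendrocytes and myelin 7 of 12. Of the 8, 10 and 7 tested genes, 0 were at the floor on 12 or more arrays.

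The upstream sequence of the genes was read from RefSeq, build GRCr8, to show where the matched letters of known control elements lie. The 250 bases before each of the 8 annotated starts of the 5 genes were searched on both strands. The full palindrome of the glucocorticoid response element, AGAACA and TGTTCT with any 3 bases between, matched 0 of the 8 windows, against 0.012% of 33469 windows of the same length for all genes, and AGAACA alone matched 0 of 8 against 17.5%. No match says only that these letters are not in these windows. The TATA box letters TATAAA matched 3 of 8 windows against 12.9%, in Errfi1 and at 2 of the 3 Sgk1 starts. The letters TGACG, part of the cyclic AMP response element, matched 2 of 8 windows against 18.2%, in Errfi1 and Klf9, and the NF-kappa-B letters, GGGA and TTTCC with any base between, matched 1 of 8 against 0.314%, in Nfkbia. The sequences below show these matches in capitals on the strand of the gene, 30 bases around the match for Sgk1 (chr1:24807269-24807298 and chr1:24804847-24804876, minus strand) and Nfkbia (chr6:78597084-78597113, minus strand) and the whole window for Errfi1 (chr5:166606591-166606840, plus strand) and Klf9 (chr1:230126396-230126645, plus strand). CGTCA is the reverse complement of TGACG, and GGAAATTCCC matches the NF-kappa-B letters read on the other strand.
Sgk1, first start: attccctttagaTATAAAgcgggactcgga
Sgk1, other start: aggctcagggctTATAAAgtcggtcgcaga
Errfi1: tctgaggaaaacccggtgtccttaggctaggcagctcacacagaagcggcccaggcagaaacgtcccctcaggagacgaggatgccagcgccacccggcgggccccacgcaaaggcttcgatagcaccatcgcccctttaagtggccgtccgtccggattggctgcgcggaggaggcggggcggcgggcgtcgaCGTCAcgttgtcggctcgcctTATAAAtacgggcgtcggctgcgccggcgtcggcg
Klf9: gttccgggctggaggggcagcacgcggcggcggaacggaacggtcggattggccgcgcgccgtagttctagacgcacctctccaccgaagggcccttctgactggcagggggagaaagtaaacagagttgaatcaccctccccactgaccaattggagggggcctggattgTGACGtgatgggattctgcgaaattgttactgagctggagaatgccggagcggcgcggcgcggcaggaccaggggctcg
Nfkbia: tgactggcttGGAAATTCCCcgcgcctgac

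The question was whether the receptor and its targets moved with repeated anaesthesia. None of the 9 tested probe sets passed an adjusted p of 0.05 (limma, Benjamini-Hochberg over all 7389 probe sets tested) in any of the 4 exposed groups against control. Over all probe sets, the share called was 0.0135% in halothane 5, 0.0406% in halothane 10, 0% in isoflurane 5 and 0% in isoflurane 10, so a count of 0 among the members lay at the background. At an unadjusted p of 0.05, 1 of 9 member probe sets was under the threshold in each group, against 3.53%, 7.52%, 2.14% and 9.05% of all probe sets. They were Klf9 in halothane 5, Errfi1 in halothane 10, Nfkbia in isoflurane 5 and the other Errfi1 probe set, with a lower level, in isoflurane 10. Averaged over the 4 exposed groups, 0 of 9 were called (0% of all probe sets called) and 0 of 9 had an unadjusted p under 0.05, against 8.44% of all probe sets. Each exposed group was compared with the same 12 control arrays, so the 4 comparisons share them.

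The direction of the member probe sets varied by group. In halothane 5, 9 of 9 had a positive log2 fold change and the median was 0.14, against -0.0077 over all probe sets, of which 48.1% were positive. In halothane 10, 7 of 9 were positive with a median of 0.29, against -0.03 over all, of which 43.7% were positive. In isoflurane 5 it was 6 of 9 with a median of 0.07, and in isoflurane 10 it was 4 of 9 with a median of -0.15. Over all probe sets the medians of these 2 groups were 0.0064 and -0.0027, with 51.5% and 49.5% positive. Some genes have 2 probe sets here, so the 9 are not 9 independent measurements. The median 95% interval of a member probe set reached 0.41 to either side on the log2 scale, and over single groups the half-width ran from 0.285 for main Klf9 to 0.85 for main Nr3c1. These intervals are not adjusted for the number of probe sets.

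**Figure D1:**
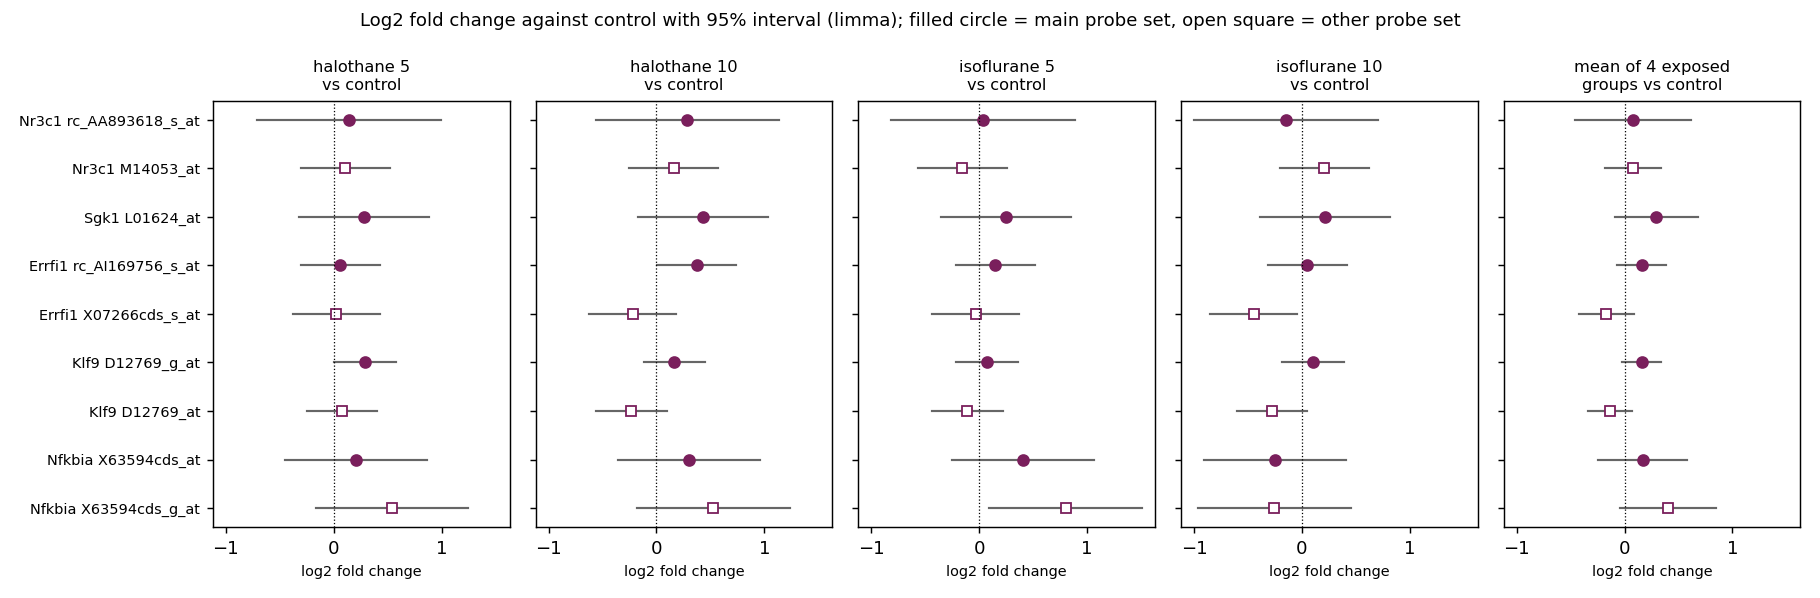
Log2 fold change against control with its 95% interval (limma) for the 9 tested probe sets, 1 panel per exposed group and 1 for the mean of the 4 exposed groups; filled circles are the main probe set of each gene, the one with the highest mean level, and open squares the other probe set. The interval includes 0 for 32 of the 36 points of single groups, and no point passed the adjusted threshold.

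Nr3c1, the receptor, was measured by 2 probe sets above the floor, and neither passed the threshold in any exposed group. The main probe set rc_AA893618_s_at had signals of 59.3 to 191.2 in the controls, with a median of 92.95. It was at 102.7, 67.7 and 184.6 in replicates 1, 2 and 3 of halothane 5, at 98.1, 84 and 210.2 in halothane 10, at 72.9, 75.4 and 187.4 in isoflurane 5 and at 76.5, 51 and 181.3 in isoflurane 10. In every exposed group 1 array, always replicate 3, stood far above the other 2, and all the ranges overlapped that of the controls. The mean was highest in halothane 10 (130.8 ± 69.2, SD, n = 3) and lowest in isoflurane 10 (102.9 ± 69.1, SD, n = 3), with the control mean at 107.1 ± 47.1 (SD, n = 12), and no neighbours in that order had separate ranges. The log2 fold change was 0.14 in halothane 5, 0.29 in halothane 10, 0.04 in isoflurane 5 and -0.15 in isoflurane 10, each with a standard error of 0.41.

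The high values of Nr3c1 lay on the arrays with the high spike-in level. Within groups, the main probe set was 2.03-fold higher on those arrays (log2 difference 1.02 ± 0.17, SE, limma adjusted p = 0.00018). Among the 15 low-level arrays it ranged from 51 to 104, and among the 9 high-level arrays from 59.3 to 210.2, where the lowest was a single control and the other 8 lay above the low-level range. Over all probe sets 20.0% were called between the levels, 7.67% higher and 12.3% lower, and 2 of the 9 members were among them. The 3'-to-5' log2 signal ratio of actin, a measure of RNA integrity, was 0.51 to 0.72 on high-level and 0.44 to 1.10 on low-level arrays. The part of RNA integrity in the difference was not tested. With a block for the spike-in level, the log2 fold change of Nr3c1 was 0.23, 0.37, 0.12 and -0.06 in the 4 groups in the order above. Among low-level arrays alone it was 0.08, 0.20, -0.09 and -0.34, and among high-level arrays, with 1 array per exposed group, 0.46, 0.65, 0.48 and 0.44.

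**Figure D2:**
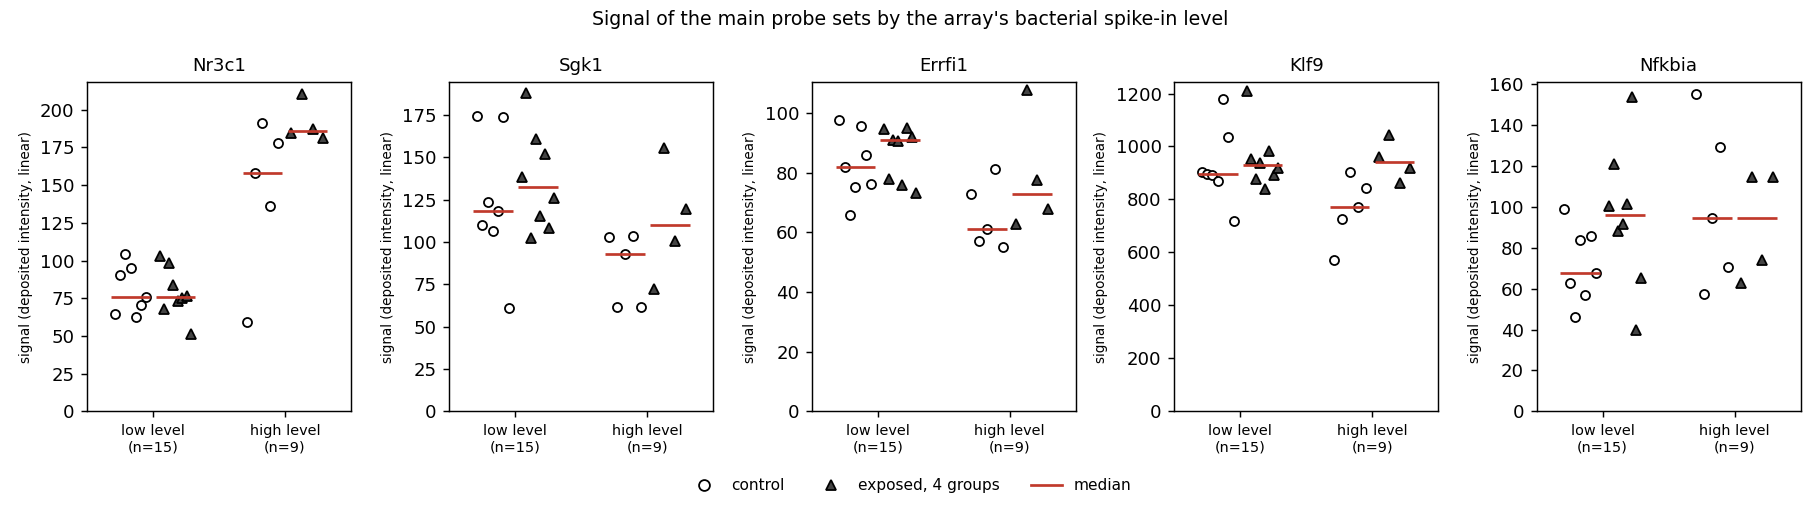
Deposited signal (linear scale) of the main probe set of each gene on every array, split by the array's bacterial spike-in level; open circles are controls, triangles the arrays of the 4 exposed groups, and red lines medians. Nr3c1 shows the split between 51 to 104 on the 15 low-level arrays and 59.3 to 210.2 on the 9 high-level arrays, and exposed and control arrays overlap within both levels for every gene.

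The second receptor probe set, M14053_at, did not follow the main one. Its signals were 31.1 to 56.2 in the controls, with a median of 49.75. It was at 74.6, 38.8 and 42.8 in halothane 5, at 46.4, 56.1 and 53.2 in halothane 10, at 37.5, 48.7 and 39.1 in isoflurane 5 and at 58.7, 56.6 and 45.9 in isoflurane 10. Only 1 array of halothane 5 and 2 of isoflurane 10 were above every control. The log2 fold changes were 0.11, 0.16, -0.16 and 0.21, each with a standard error of 0.20, and no difference by spike-in level was called (-0.16, adjusted p = 0.397). Over the 24 arrays the log2 values of the 2 Nr3c1 probe sets correlated with r = 0.040, and over the 15 low-level arrays with r = 0.32. The remaining receptor probe set, rc_AI137538_at, was at 4.7 to 12.8 and never above the floor.

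Sgk1, a kinase that glucocorticoids and cell shrinkage induce, was above control on average in all 4 exposed groups, as were the main probe sets of Errfi1 and Klf9, but passed in none. Its single probe set, L01624_at, had control signals of 61.3 to 174.7 with a median of 105. It was at 138.7, 188 and 72.3 in halothane 5, at 102.5, 160.6 and 155.7 in halothane 10, at 115.6, 151.8 and 100.8 in isoflurane 5 and at 108.4, 125.8 and 119.8 in isoflurane 10. Only 1 exposed array, replicate 2 of halothane 5, lay above every control, and every group overlapped the controls. The order of means ran from halothane 10 (139.6 ± 32.2, SD, n = 3) through halothane 5, isoflurane 5 and isoflurane 10 to the controls (107.6 ± 38.0, SD, n = 12). Over the 4 exposed groups together Sgk1 was 1.23-fold of control (log2 fold change 0.29 ± 0.18, SE; 95% interval -0.09 to 0.68; limma adjusted p = 0.683).

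Within single groups the log2 fold change of Sgk1 was 0.28 in halothane 5, 0.43 in halothane 10 (95% interval -0.17 to 1.03, adjusted p = 0.746), 0.25 in isoflurane 5 and 0.21 in isoflurane 10. With a block for the spike-in level these were 0.25, 0.40, 0.22 and 0.18. In halothane 10 the value was 0.12 among low-level arrays and 0.92 among high-level arrays, where the single exposed array was at 155.7 and the 5 controls at 61.6 to 103.7. In halothane 5 the levels gave opposite signs, with 0.45 among low-level and -0.19 among high-level arrays. Between the levels Sgk1 differed by -0.42, which did not pass (adjusted p = 0.09).

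**Figure D3:**
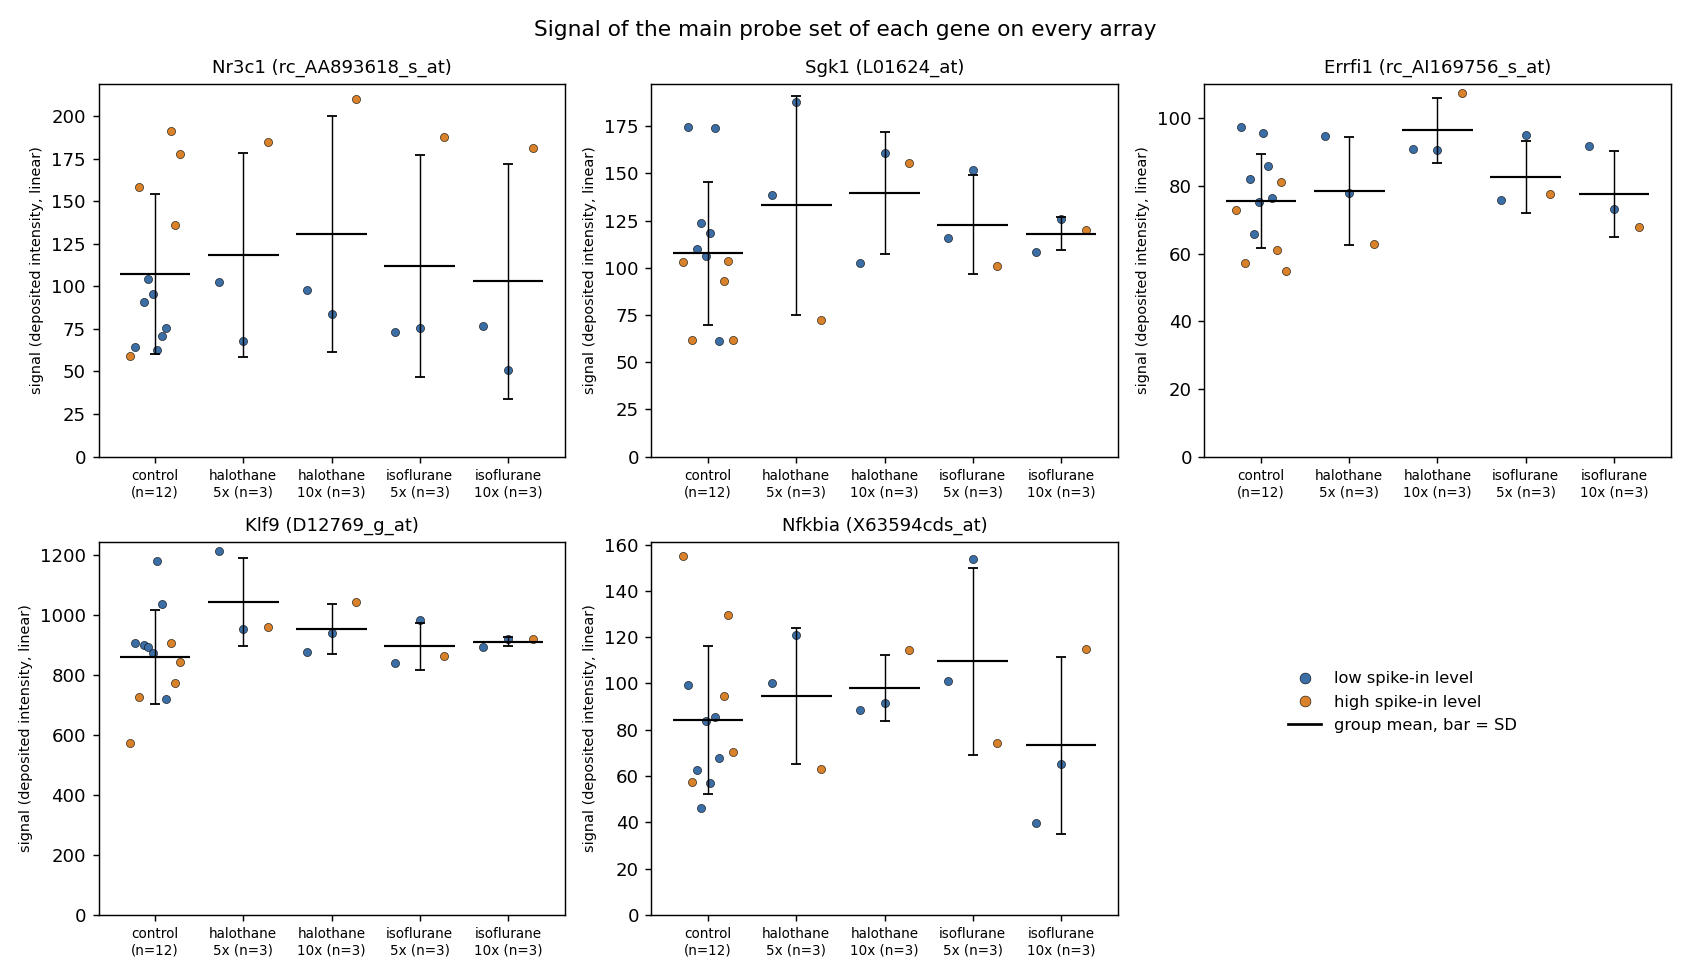
Deposited signal (linear scale) of the main probe set of each gene on every array, by group; horizontal lines are group means, bars the SD, and colours the spike-in level. Each exposed group overlaps the controls in every panel. The receptor Nr3c1 shows replicate 3 of each exposed group at 181.3 to 210.2 above the other 2 replicates, at 51 to 102.7.

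Errfi1, a feedback inhibitor of the EGF receptor that glucocorticoids and growth factors induce, was the member closest to the threshold in halothane 10, and its 2 measured probe sets ran in opposite directions there. The main probe set rc_AI169756_s_at was at 54.9 to 97.5 in the controls, with a median of 75.8. It was at 90.9, 90.7 and 107.6 in halothane 10, at 94.7, 77.9 and 62.8 in halothane 5, at 75.7, 95 and 77.5 in isoflurane 5 and at 91.9, 73.2 and 67.8 in isoflurane 10. In halothane 10 all 3 arrays lay above the control median but only 1 lay above the highest control. The log2 fold change was 0.37 ± 0.18 (SE; 95% interval 0.0057 to 0.74), which did not pass (limma adjusted p = 0.66). In the other groups it was 0.06, 0.15 and 0.05 for halothane 5, isoflurane 5 and isoflurane 10.

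The main Errfi1 difference in halothane 10 was 0.35 with a block for the level, 0.15 among low-level arrays and 0.73 among high-level arrays. The high-level array was at 107.6 where the 5 high-level controls were at 54.9 to 81.3, while the 2 low-level arrays at 90.7 and 90.9 lay inside the 65.9 to 97.5 of the 7 low-level controls. Errfi1 on X07266cds_s_at was dimmer, at 17.4 to 35.2 in the controls with a median of 26.9. It was at 22.8, 28.8 and 16.8 in halothane 10, at 31.6, 26.7 and 21.7 in halothane 5, at 24.9, 28.7 and 22.9 in isoflurane 5 and at 15.9, 25.4 and 14.7 in isoflurane 10. All 3 isoflurane 10 arrays were below the control median and 2 were below the floor and below every control.

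The log2 fold change of this Errfi1 probe set was -0.45 ± 0.19 in isoflurane 10 (SE; 95% interval -0.85 to -0.04; limma adjusted p = 0.495) and -0.22, 0.02 and -0.03 in halothane 10, halothane 5 and isoflurane 5. It was lower on the high-level arrays (-0.40, adjusted p = 0.00604), and with the level as a block the isoflurane 10 value was -0.48. Values under the floor were raised to it, so this fold change is understated. The 2 Errfi1 probe sets correlated with r = 0.21 over 24 arrays and -0.048 over the 15 low-level arrays. The remaining Errfi1 probe set, M23572_at, was at 1.3 to 16.1 and never above the floor.

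Klf9, a transcription factor that glucocorticoids and thyroid hormone induce in neurons, had the highest signals of the 5 genes' probe sets, though signals of different probe sets are not on 1 scale. The main probe set D12769_g_at was at 572.7 to 1179.7 in the controls with a median of 881.8. It was at 1210.4, 952 and 959.9 in halothane 5, at 876, 938.7 and 1041.9 in halothane 10, at 838.7, 982.1 and 860.5 in isoflurane 5 and at 893, 918 and 919.7 in isoflurane 10. All 3 arrays of halothane 5 and of isoflurane 10 were above the control median, and 1 of halothane 5 was above every control. The log2 fold change in halothane 5 was 0.29 ± 0.14 (SE; 95% interval 0.0033 to 0.57; limma adjusted p = 1). In halothane 10, isoflurane 5 and isoflurane 10 it was 0.17, 0.07 and 0.10.

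The second Klf9 probe set, D12769_at, carries the same accession in its name and gave negative values in 3 groups. Its signals were 343.4 to 465.7 in the controls with a median of 394.2. It was at 343.8, 429.5 and 467.7 in halothane 5, at 287.4, 267.4 and 469.9 in halothane 10, at 374.7, 337.8 and 369.4 in isoflurane 5 and at 321.6, 224.2 and 454.3 in isoflurane 10. In halothane 10 and isoflurane 10, 2 of 3 arrays lay below every control, both at the low spike-in level, and the other array, at the high level, lay at 469.9 or 454.3. The log2 fold changes were 0.08, -0.23, -0.11 and -0.28, with an adjusted p of 0.618 or more. Over 24 arrays the 2 Klf9 probe sets correlated with r = 0.089 and over the 15 low-level arrays with r = 0.0074.

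With a block for the level, the main Klf9 value was 0.28 in halothane 5, and 0.22 among low-level and 0.35 among high-level arrays. In the other 3 groups the low-level arrays alone gave -0.020, -0.019 and -0.022 for halothane 10, isoflurane 5 and isoflurane 10, where the high-level arrays gave 0.47, 0.19 and 0.29. The second probe set gave -0.52 in halothane 10 and -0.56 in isoflurane 10 among low-level arrays, and 0.32 and 0.27 among high-level arrays.

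Nfkbia, the inhibitor of NF-kappa-B that glucocorticoids raise to dampen inflammation and that NF-kappa-B itself induces, had the closest match between 2 probe sets of a gene (r = 0.67 over 24 arrays and 0.72 over the 15 low-level arrays). The main probe set X63594cds_at was at 46.1 to 155.2 in the controls, with a median of 77.1. It was at 100.3, 120.8 and 63 in halothane 5, at 88.4, 91.5 and 114.6 in halothane 10, at 101.2, 153.7 and 74.2 in isoflurane 5 and at 39.6, 65.3 and 114.8 in isoflurane 10. No exposed array was above every control, and 1 isoflurane 10 array was below every control. The log2 fold changes were 0.21, 0.30, 0.41 and -0.25, each with a standard error of 0.32.

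The second Nfkbia probe set, X63594cds_g_at, was at 11.9 to 97.1 in the controls with a median of 57.8. It was at 87.4, 86 and 61 in halothane 5, at 56, 88.8 and 89.4 in halothane 10, at 84.8, 113 and 81.8 in isoflurane 5 and at 34, 32.8 and 78.5 in isoflurane 10. All 3 arrays of halothane 5 and of isoflurane 5 were above the control median, 1 of isoflurane 5 was above every control, and 2 of isoflurane 10 were below the control median. The log2 fold changes were 0.54, 0.53, 0.80 (± 0.34, SE; 95% interval 0.10 to 1.51; limma adjusted p = 1) and -0.25. Control 4, at 11.9, was under the floor, and the other 11 controls were above it. Leaving out 1 array in turn gave 0.39 to 0.71 in halothane 5, 0.375 to 0.75 in halothane 10 and 0.65 to 0.89 in isoflurane 5. The isoflurane 5 value of this probe set was 1.12 among low-level arrays, 0.295 on the 1 high-level array against the high-level controls, and 0.83 with the level as a block. The main probe set gave 0.84 among low-level arrays in isoflurane 5 and -0.35 on the 1 high-level array.

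The 2 durations and the 2 agents were then compared directly. These differences are between exposed arrays, while their intervals and p-values rest on the spread shared by all 24 arrays, controls included. No member probe set was called in halothane 5 against isoflurane 5 (background 0.0135% called), in halothane 10 against isoflurane 10 (0%), in halothane 10 against halothane 5 (0.0135%) or in isoflurane 10 against isoflurane 5 (0%). The isoflurane groups differed most in Nfkbia. From 5 to 10 exposures of isoflurane, X63594cds_g_at had a log2 difference of -1.05 ± 0.43 (SE; 95% interval -1.95 to -0.16; limma adjusted p = 1) and X63594cds_at of -0.65 (95% interval -1.49 to 0.18). The same 2 probe sets were at 0.78 (-0.11 to 1.67) and 0.55 (-0.28 to 1.38) in halothane 10 against isoflurane 10. Among low-level arrays the main Nfkbia probe set was at -1.29 between the isoflurane groups, and on the high-level arrays, 1 for each group, at 0.63.

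For the other genes the intervals of the direct comparisons included 0. Those with the lowest unadjusted p were the second probe sets, with Errfi1 X07266cds_s_at at -0.41 (95% interval -0.92 to 0.09) in isoflurane 10 against isoflurane 5, Klf9 D12769_at at -0.31 (-0.72 to 0.10) in halothane 10 against halothane 5, and Nr3c1 M14053_at at 0.36 (-0.16 to 0.89) in isoflurane 10 against isoflurane 5. Main Errfi1 was at 0.32 (95% interval -0.14 to 0.78) in halothane 10 against isoflurane 10 and at 0.31 (-0.15 to 0.77) in halothane 10 against halothane 5. Sgk1 was at 0.22 (-0.55 to 0.98) and 0.15 (-0.62 to 0.91) in the same comparisons, and Klf9 at 0.06 (-0.30 to 0.42) and -0.12 (-0.48 to 0.24). Nr3c1 was at 0.43 (-0.64 to 1.51) and 0.14 (-0.93 to 1.22). These intervals do not show that the agents or durations acted alike.

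**Figure D4:**
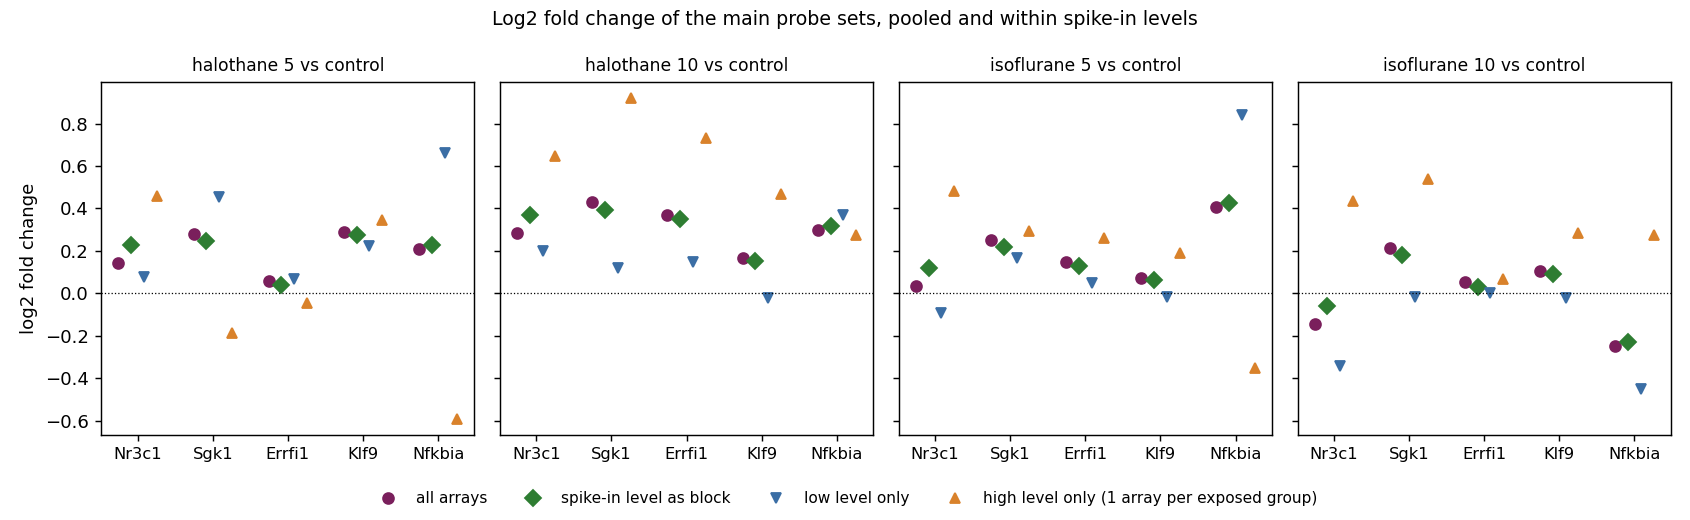
Log2 fold change against control of the main probe set of each gene (no error bars) from all arrays, with a block for the spike-in level, from the low-level arrays alone and from the high-level arrays alone, where each exposed group has 1 array. Nfkbia in halothane 5 and isoflurane 5 and Sgk1 in halothane 5 are among the values with opposite signs at the 2 levels.

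Other genes of the receptor's pathway were read from lists that give 1 probe set per gene, and none of these lists held a gene that rose or fell past the threshold in any group against control. The counts of higher and lower genes below stand beside the share of all probe sets that was higher. That share was 48.1% in halothane 5, 43.7% in halothane 10, 51.5% in isoflurane 5 and 49.5% in isoflurane 10. Of 46 symbols listed as glucocorticoid-induced, members not included, 23 were on the array and 18 were tested, so most of that list was not measured. Among the 18, 9 were higher and 9 lower in halothane 10 (median 0.01), and 13 were higher and 5 lower in isoflurane 10 (median 0.05). The highest in halothane 10 were Gpd1, an enzyme of glycerol metabolism, at 1.02 (adjusted p = 0.578), Aqp4, the astrocyte water channel, at 0.83 (adjusted p = 0.66), and Sult1a1, a phenol sulfotransferase, at 0.80 (adjusted p = 0.0902). A second Sult1a1 probe set, which the rule did not choose, passed there (0.98, adjusted p = 0.0246). After 5 exposures, 7 of the 18 induced genes were higher and 11 lower with halothane (median -0.02), and 13 were higher and 5 lower with isoflurane (median 0.12). Of 16 listed glucocorticoid-repressed genes, 13 were tested. Among these, 3 were higher and 10 lower in halothane 10 (median -0.11) and 5 and 8 in isoflurane 10 (median -0.02).

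Of 20 listed genes of receptor chaperones and coregulators, 9 were tested. Of these, 7 were lower in halothane 10 (median -0.12) and 8 in isoflurane 10 (median -0.16), with 0 called. Fkbp4, a co-chaperone of the receptor, was at -0.28 (adjusted p = 0.653) in halothane 10, and Dnajb1, a heat shock co-chaperone, at -0.37 (adjusted p = 0.319) in isoflurane 10. Of 26 listed symbols of the stress axis and steroid supply, 16 were tested. Of these, 11 were lower in halothane 10 (median -0.10), among them Crhbp, which binds corticotropin-releasing hormone, at -0.85 (adjusted p = 0.422). In halothane 5, 12 were lower (median -0.12). In isoflurane 5, 9 were higher and 6 lower (median 0.07), and in isoflurane 10, 7 were higher and 9 lower (median -0.06). Of the 16, 4 were at the floor on 12 or more arrays. In the glucocorticoid-induced list, the share of genes with an unadjusted p under 0.05 was 16.7%, which is 3 genes, in halothane 10 against 7.52% of all probe sets. In isoflurane 10 it was 5.56% against 9.05%. Sult1a1 was 1 of the 3 genes, and the list was chosen with earlier results of these data known, so this share is no independent support. After 5 exposures the share was 5.56%, which is 1 gene, against 3.53% with halothane, where the gene was Sult1a1, and 2.14% with isoflurane. In the glucocorticoid-repressed list it was 0% in each of the 4 groups. In the stress axis list it was 12.5%, which is 2 genes, in each halothane group, 0% in isoflurane 5 and 6.25% in isoflurane 10. In the chaperone and coregulator list it was 0% in halothane 5 and 11.1%, which is 1 gene, in each of the other groups.

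The partners of the single members gave the same count of 0. Of the listed genes, 15 of 24 were tested for Sgk1 signalling and 16 of 24 for EGF receptor signalling. It was 16 of 21 for Kruppel-like factors and thyroid hormone targets, 8 of 24 for NF-kappa-B signalling and 19 of 26 for immediate early genes. Sgk1 signalling had 5 higher and 10 lower of 15 in halothane 10, EGF receptor signalling 8 and 8 of 16, Kruppel-like factors and thyroid hormone targets 3 and 13 of 16 (median -0.18), and NF-kappa-B signalling 2 and 6 of 8 (median -0.16). In halothane 5 these 4 lists had 10 and 5, 7 and 9, 9 and 7, and 6 and 2 (median 0.18 for NF-kappa-B signalling). With isoflurane, NF-kappa-B signalling had 3 and 5 after 5 exposures and 2 and 6 after 10. In the NF-kappa-B list Nfkb1, which encodes a subunit of the factor that Nfkbia holds, was at 0.55 (adjusted p = 0.483) and Tnfrsf1a, a receptor for tumour necrosis factor, at -1.04 (adjusted p = 0.626) in halothane 10, while Tnfrsf1a was at 0.57 (adjusted p = 1) in halothane 5. Of 19 immediate early genes, which neuronal activity induces, 16 were lower in halothane 10 (median -0.23) and 14 in isoflurane 10 (median -0.19), against 13 in halothane 5 and 11 in isoflurane 5, with 0 called. Junb, a subunit of the AP-1 factor, was at -0.62 (adjusted p = 0.224) and Jun at 0.53 (adjusted p = 0.398) in halothane 10. The share with an unadjusted p under 0.05 in halothane 10 was 26.3%, which is 5 genes, for immediate early genes. It was 25%, which is 2 genes, for NF-kappa-B, 6.67% for Sgk1 signalling and 6.25% for each other list, against 7.52% of all probe sets. In isoflurane 10 immediate early genes had 15.8%, NF-kappa-B signalling 12.5%, Sgk1 signalling 6.67%, EGF receptor signalling 6.25% and Kruppel-like factors 0%, against 9.05%.

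In bulk brain, fewer cells of a type and less RNA per cell cannot be told apart, and some cell type markers lay mostly to 1 side of control. In halothane 10, blood markers had 5 of 6 genes lower (median -0.33), with a summed signal of 495 to 549 against 600 to 1065 in the controls and S100a9 at the floor. Choroid plexus and ependyma markers had 6 of 8 genes higher (median 0.27), with a summed signal of 5252 to 7925 against 3969 to 5958. Oligodendrocyte and myelin markers had 7 of 7 lower (median -0.22, summed signal 8309 to 11403 against 8789 to 12794). The higher and lower counts were 4 and 4 for neurons, 7 and 3 for astrocytes, 6 and 3 for microglia, 3 and 6 for endothelium and pericytes, 6 and 2 for meninges and 2 and 6 for pituitary. In halothane 5, where all 9 member values were positive, the choroid plexus and ependyma list had 7 of 8 genes below control (median -0.13, summed signal 2813 to 5097), 5 of 6 blood markers were lower (median -0.19) and 7 of 8 meningeal markers were higher (median 0.18). In isoflurane 5 the choroid plexus and ependyma list had 7 genes above control and 1 below, at a median of 0.21 and a summed signal of 5331 to 7484. In isoflurane 10, 6 of 6 blood markers were lower (median -0.26, summed signal 453 to 722). In both halothane 10 and isoflurane 10, 50% of blood markers, which is 3 genes, had an unadjusted p under 0.05. It was 25%, which is 2 genes, for choroid plexus and ependyma, and at most 12.5% for the other marker lists in these groups. Over all probe sets the shares were 7.52% and 9.05%. No marker passed the adjusted threshold in any of the 4 groups against control, and the part of these cells in the members' values was not tested.

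The genes whose log2 values followed the main probe sets most closely over the 24 arrays were listed with no test, since arrays of 1 spike-in level share it. Nr3c1 was followed most closely by Pja2 (r = 0.92), Nfix (0.92) and Srpk2 (0.91), which over the 15 low-level arrays were at 0.65, 0.60 and 0.58. Sgk1 was followed by Cryab (0.66), Ppm1b (0.64) and Neurod1 (0.63), Errfi1 by Neurod1 (0.70), Zfp386 (0.70) and Gabra6 (0.69), and Klf9 by Lox (0.78), Myl12a (0.77) and Cnbp (0.76). Over the low-level arrays these were at 0.50, 0.38 and 0.40 for Sgk1, at 0.55, 0.58 and 0.27 for Errfi1, and at 0.66, 0.80 and 0.53 for Klf9. Nfkbia was followed by Pygm (0.65), Nxph4 (0.64) and Dusp1 (0.62), the last of them a phosphatase that is itself glucocorticoid-induced. The 3 for Nfkbia were at 0.65, 0.63 and 0.65 over the low-level arrays. Between the members' main probe sets, Sgk1 and Errfi1 had r = 0.68 over 24 arrays and 0.31 over the 15 low-level arrays.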

How the data were processed

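The deposited values are linear signal intensities, 1 for each probe set on each array. Which software summarised the probes, not given in the sources used here, could shift dim values. The deposited scaling was kept, since 2% trimmed means were 150.1 to 150.2 on all arrays. Intensities under 16.5, the 25th percentile of the table, were set to 16.5 before log2 was taken, which understates changes of dim probe sets. Control probe sets (59) were dropped, and a probe set was tested if 3 or more arrays exceeded the floor. A single limma model (version 3.58.1, R 4.3.3; 5 group means, intensity trend, two-sided) took all 24 arrays, with Benjamini-Hochberg adjustment over 7389 probe sets and a threshold of 0.05. The fit was tested on simulated data with independent scatter on each array. Those data lacked the spike-in levels and the shared deviations of these arrays, so the test does not cover them. A gene's main probe set is that with the highest mean log2 value. Named list genes were those past the threshold and otherwise up to 4 with the lowest p. The members and lists were chosen with earlier results of these data known. Same-numbered arrays deviated together, with every pair's correlation over 0.1, in halothane 10 against isoflurane 10 (0.222 to 0.468) and isoflurane 10 against isoflurane 5 (0.149 to 0.46). Replicate 3 was the only high-level array of each of these groups, so for replicate 3 pairing and spike-in level cannot be told apart. Replicates 1 and 2 were all at the low level. Their correlations were 0.26 and 0.222 in halothane 10 against isoflurane 10, and 0.149 and 0.296 in isoflurane 10 against isoflurane 5. What same-numbered arrays share was not tested. A separate fit took the replicate number, from the titles, as a block on the data alone, and it changed no call there. All values printed for these comparisons, unless a block is named, come from the fit without it. Alternatives were other normalizations, floors, filters, weights, blocks and array subsets, and leaving out each array. The fit with the spike-in level as a coefficient was added after seeing the data.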

Additional observations from a re-analysis of the deposited data

How the results depend on the processing

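No member probe set that a setting tested passed the adjusted threshold in any of the 9 comparisons, under 14 other settings or without any 1 of the 24 arrays, and the lowest adjusted p reached was 0.14. The higher floor and the strict filter tested fewer members, with 72 and 63 of the 81 values. Direction was less stable. Of 81 member log2 fold changes, 49 kept their sign without each array in turn and 32 did not in at least 1 of those fits. The values below are log2 fold changes that changed sign, for the main probe set unless named and against control unless 2 groups are named, and the cause was not tested. No label says that replicate numbers pair the arrays. Same-numbered arrays of control and exposed groups had correlations above 0.1 in 4 of 12 pairs, and those of exposed groups in 16 of 18. The 4 pairs with control were all of replicate 3, and control 3 was also at the high level. An exposed array correlated best with its own number in 30 of 36 choices among exposed groups. That was 8 of 12 for replicate 1, 10 of 12 for replicate 2 and 12 of 12 for replicate 3. Replicate 3 was the only high-level array of each exposed group, so its number and the spike-in level cannot be told apart. With the replicate number as a block, comparisons with control rest on controls 1 to 3 alone, since numbers 4 to 12 occur in controls only. No member was called with this block. The count over all probe sets was 15 in halothane 10 and 27 for the exposed mean against control, and 0 in each of the other 7 comparisons. With the same block Nfkbia was at -0.070 in halothane 5 and -0.11 over the exposed mean, X07266cds_s_at at 0.0063 over the exposed mean, Nr3c1 at 0.076 in isoflurane 10, and M14053_at at 0.20 and X07266cds_s_at at 0.14 in isoflurane 5. With a block for the spike-in level, X07266cds_s_at was at -0.011 in halothane 5. With array weights, Nr3c1 was at -0.082 in isoflurane 5, 0.0065 in isoflurane 10 and 0.089 in isoflurane 10 against 5, and in halothane 10 against 5 Sgk1 was at -0.058 and Nfkbia at -0.093, and D12769_at was at -0.18 in halothane 10 against isoflurane 10. In halothane 10 against 5, X63594cds_g_at was at 0.0096 with quantile normalization and 0.013 with median centring, which also put Sgk1 at 0.00013 in isoflurane 10 against 5. Without controls 10 to 12, Errfi1 was at -0.0064 and X07266cds_s_at at -0.039 in halothane 5, and Nr3c1 at 0.11 and Errfi1 at -0.014 in isoflurane 10. Among low-level arrays, halothane 5 had X07266cds_s_at at -0.0068 and D12769_at at -0.047, halothane 10 had Klf9 at -0.020, isoflurane 5 had Nr3c1 at -0.093 and Klf9 at -0.019, and isoflurane 10 had Sgk1 at -0.015 and Klf9 at -0.022. At that level Nr3c1 was at -0.040 over the exposed mean, Errfi1 at 0.018 in halothane 5 against isoflurane 5, M14053_at at -0.077, Sgk1 at -0.33 and Nfkbia at -0.29 in halothane 10 against 5, and Klf9 at -0.0034 in isoflurane 10 against 5. Among high-level arrays, with 1 array per exposed group, halothane 5 had M14053_at at -0.026, Sgk1 at -0.19, Errfi1 at -0.043, X07266cds_s_at at -0.020, Nfkbia at -0.59 and X63594cds_g_at at -0.13. Halothane 10 had D12769_at at 0.32, isoflurane 5 had X07266cds_s_at at 0.058 and Nfkbia at -0.35, and isoflurane 10 had Nr3c1 at 0.44, D12769_at at 0.27, Nfkbia at 0.28 and X63594cds_g_at at 0.24. The exposed mean had D12769_at at 0.22 and Nfkbia at -0.099, halothane 10 against isoflurane 10 had M14053_at at 0.21 and Nfkbia at -0.0025, and halothane 5 against isoflurane 5 had Nr3c1 at -0.022, Sgk1 at -0.48 and X07266cds_s_at at -0.078. Halothane 10 against 5 had Klf9 at 0.12, D12769_at at 0.0068 and X63594cds_g_at at 0.55, and isoflurane 10 against 5 had Sgk1 at 0.25, D12769_at at 0.30 and Nfkbia at 0.63. Leaving out 1 array gave, in halothane 5, ranges of -0.24 to 0.48 for Nr3c1, -0.18 to 0.29 for M14053_at, -0.021 to 0.67 for Sgk1, -0.087 to 0.21 for Errfi1, -0.11 to 0.16 for X07266cds_s_at and -0.015 to 0.21 for D12769_at. For Nr3c1 it gave -0.12 to 0.54 in halothane 10, -0.41 to 0.27 in isoflurane 5, -0.66 to 0.26 in isoflurane 10 and -0.049 to 0.18 over the exposed mean. It gave -0.12 to 0.043 for X07266cds_s_at in isoflurane 5, and -0.076 to 0.14 for Errfi1 and -0.64 to 0.13 for Nfkbia in isoflurane 10. In halothane 5 against isoflurane 5 the ranges were -0.28 to 0.55 for Nr3c1, -0.026 to 0.45 for M14053_at, -0.27 to 0.42 for Sgk1, -0.24 to 0.062 for Errfi1, -0.077 to 0.19 for X07266cds_s_at and -0.45 to 0.077 for Nfkbia. In halothane 10 against isoflurane 10 they were -0.16 to 0.032 for M14053_at, -0.0053 to 0.12 for Klf9 and -0.21 to 0.30 for D12769_at. In halothane 10 against 5 they were -0.26 to 0.53 for Nr3c1, -0.13 to 0.34 for M14053_at, -0.24 to 0.45 for Sgk1, -0.18 to 0.30 for Nfkbia and -0.18 to 0.21 for X63594cds_g_at. In isoflurane 10 against 5 they were -0.69 to 0.27 for Nr3c1, -0.17 to 0.13 for Sgk1, -0.22 to 0.0072 for Errfi1, -0.014 to 0.099 for Klf9 and -0.42 to 0.085 for D12769_at. Over all probe sets, the count called in halothane 10 against control was 3, and 1 to 33 in the other settings that used both spike-in levels or the low-level arrays, and that of the exposed mean was 0, and 0 to 27. On the high-level arrays the counts over the 9 comparisons were 13 to 53. Precision was limited by the 3 arrays of each exposed group and by dim probe sets near the floor, whose fold changes are understated.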
